A study of Mus musculus with 21 samples.

Results

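Oligodendrocytes, the myelin-forming glia of the central nervous system, were followed by 38 genes in cultures of primary cortical neurons. The genes were chosen by symbol and fall into 4 stages, with 6 transcription factors of the lineage, 6 genes of progenitors, 6 genes of committed, newly forming oligodendrocytes and 20 genes of myelinating cells. Genes and stages were set with earlier results of these data known. All 38 were found among the 22040 genes that have a value in at least 1 of the 4 deposited tables, and 36 had a value in every table. RNA was sequenced from 21 cultures prepared from the cortices of newborn pups, either wildtype (WT) or transgenic for hTau P301S, a mutant human tau under the prion promoter (Tau). All cultures received 1 μM of the antimitotic cytosine arabinoside against glia, and, per the labels, Tau cultures were also given pre-formed tau fibrils (3 μg/mL) on day 7 and kept for 18 more days. AdipoRon, an agonist of the adiponectin receptors, was then given at 10 μM for 24 h, with its vehicle DMSO as the control. The protocol text gives this dose in mM, while the treatment tag gives μM. There were 5 Tau cultures given DMSO and 5 given AdipoRon, and among WT cultures 5 received DMSO and 6 AdipoRon. The labels name fibrils for transgenic neurons only, in which case genotype and seeding cannot be told apart, while a passage of the study can also be read as seeding of both genotypes.

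Oligodendrocyte progenitors are dividing cells that carry the growth factor receptor PDGFRα and the proteoglycan NG2. Under the control of SOX10, OLIG2 and later MYRF they leave the cell cycle, pass through a short committed stage marked by the receptor GPR17 and by BCAS1, and then make the lipids and proteins of the myelin sheath. In the cortex of the mouse most of this course runs after birth.

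The values are means over cultures. Each deposited table gives 1 mean log2 CPM per gene (counts scaled to library size, on a log2 scale) over the cultures of the groups it compares, so that the tables yield a Tau mean (10 cultures, both treatments), a WT mean (11 cultures, both treatments), a DMSO mean (10 cultures, both genotypes) and an AdipoRon mean (11 cultures, both genotypes). The mean log2 CPM was treated as the log2 of a mean CPM, not as a mean of log2 values. The Tau and WT means share no culture, and neither do the DMSO and AdipoRon means. The groups of each table are those in its own name, but the sample descriptions differ from it: none names the WT table, and those of the 6 WT cultures with AdipoRon name the DMSO table. Per the study's methods, both treatments were applied to cultures of the same animals. Culture numbers in the labels recur between treatments (5 of 5 in Tau, 5 of 6 in WT), so that the Tau mean may stand for 5 animals and the WT mean for 6, and the DMSO and AdipoRon means may share animals. Values per culture were not analysed here, so no mean has a standard deviation, the depth per culture is unknown, and a difference may rest on a single culture. The tables also hold the authors' tests between pairs of groups, which were not used, and no difference was tested here. The counts below are counts of size, and whether any of these pooled differences would pass a test is not shown. Between Tau and WT neurons, the paper reports Gbp2b, which is not a member, as the only differentially expressed gene. The authors' tests are of pairs of groups and not of the pooled means used here. Differences are reported on the log2 scale after subtraction of their median over all genes (0.0021 for Tau minus WT, 0.024 for AdipoRon minus DMSO), and a difference of 1.5-fold or more (0.58 on the log2 scale) is counted. In bulk RNA, fewer cells of a type cannot be told apart from less RNA per cell.

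Levels of the members ranged from scarce to among the most abundant of all genes. Divided by the length of the canonical transcript, the lineage transcription factors had a median percentile of 84.2 among all genes in the WT mean, against 54.2 for progenitor, 53.4 for committed and 55.5 for myelinating genes. In the Tau mean the medians were 66.7 for the transcription factors, 41.2 for progenitor and 30.7 for committed genes. For myelinating genes the median was 60.0 in the Tau mean, where Opalin and Aspa have no value. Single members of the WT mean lay between 7.62 (Aspa) and 99.6 (Olig1), with Ermn (14.6), Opalin (15.7), Gjb1 (22.9), Plekhh1 (23.7) and Mog (27.0) also low. Markers of neurons had a median of 97.2 and those of astrocytes a median of 96.2 on this scale. The cultures, labelled as neurons, held abundant transcripts of neurons such as Snap25 (9.86 log2 CPM in the WT mean, a synaptic vesicle fusion protein) together with those of astrocytes such as Gfap (10.86, an intermediate filament protein). Vascular and meningeal markers had a median percentile of 22.5, and Cldn5, the tight junction gene that defines brain endothelium, had no value in any mean.

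**Figure D1:**
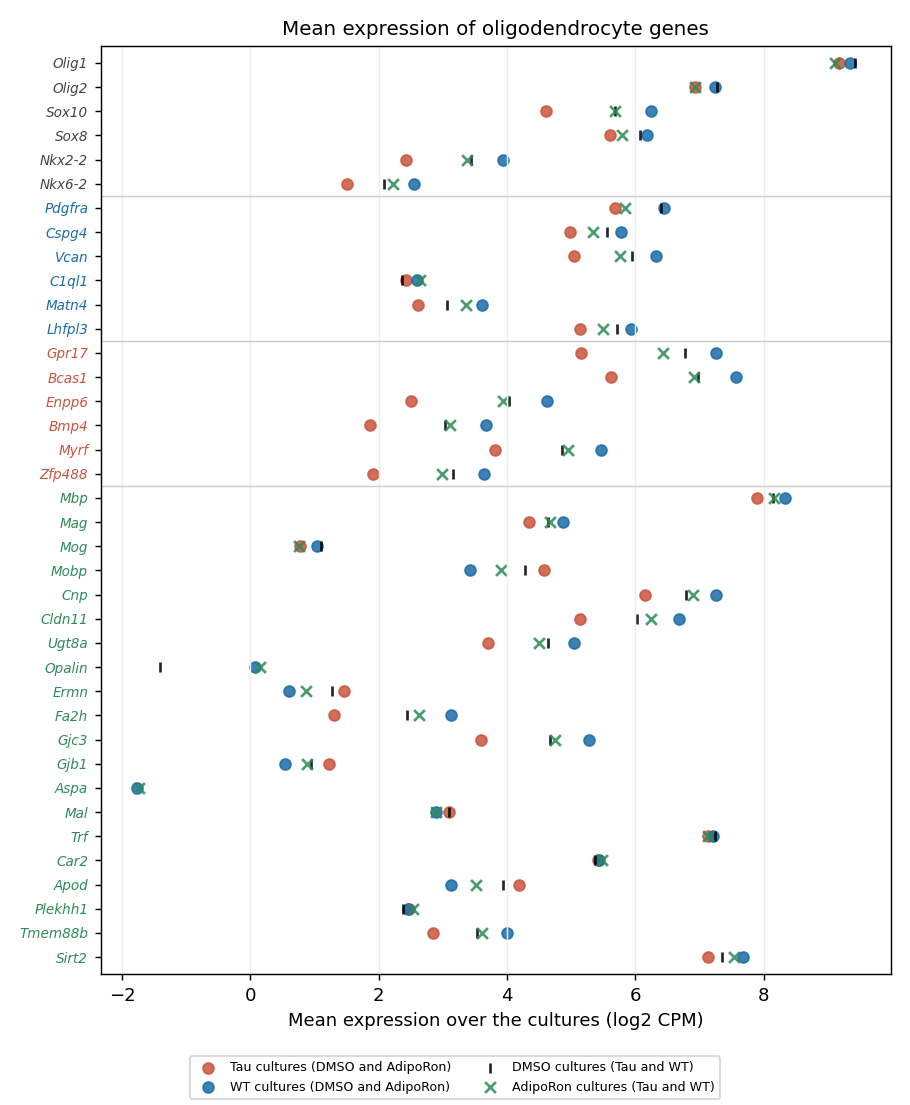
Mean expression in log2 CPM (horizontal axis) of the 38 genes, ordered by stage from lineage transcription factors (top, grey names) over progenitor (blue) and committed genes (red) to myelinating genes (bottom, green). Red and blue dots are the means over Tau and over WT cultures, bars and crosses those over DMSO and AdipoRon cultures; every committed gene lies lower in the Tau mean than in the WT mean, while Mobp and Apod lie higher.

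Between Tau and WT cultures, the lineage differed by stage. Of the 36 members with a value in both means, 20 were 1.5-fold or more lower in Tau, against 2.64% of all 19890 genes, and 4 were 1.5-fold or more higher, against 2.53% of all genes. The median difference was -0.81 for the lineage transcription factors, -0.79 for progenitor genes, -1.88 for committed genes and -0.36 for myelinating genes, where the median of all genes is 0. All 6 committed genes were counted as lower, as were 5 of 6 progenitor genes, 3 of 6 transcription factors and 6 of the 18 myelinating genes in both means. The 4 genes counted as higher in Tau were all myelinating. Low transcripts scatter more, so the comparison was repeated for a range of levels set after the values were seen: with a mean log2 CPM over 2 and up to 8, 20 of 31 members were counted as lower, against 1.83% of all genes, and 2 as higher instead of 4, against 0.257%.

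**Figure D2:**
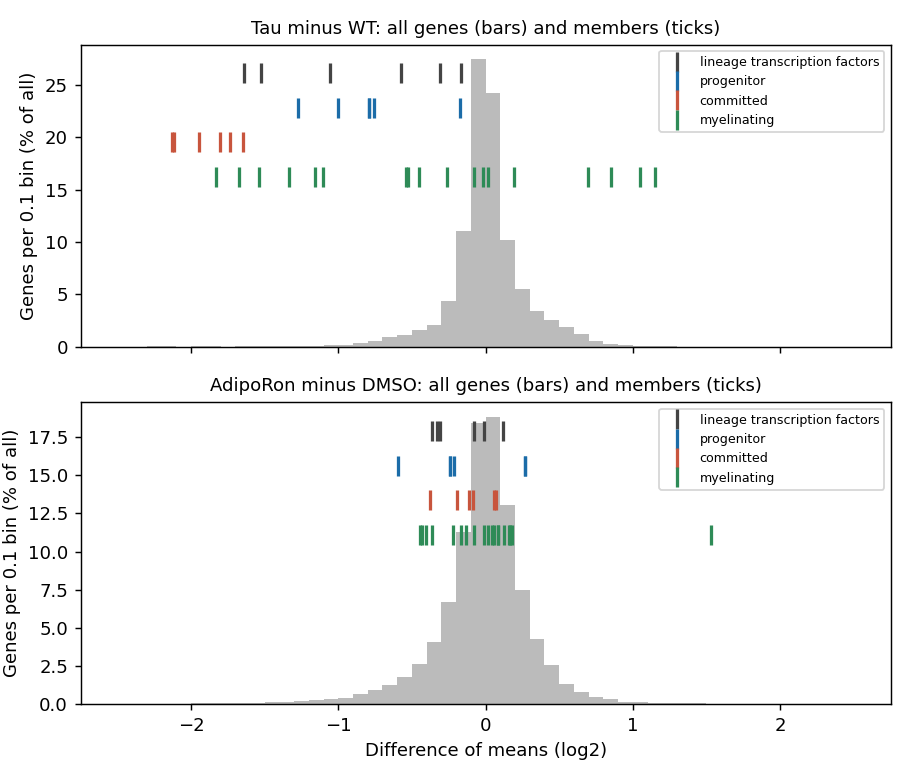
Differences of means on the log2 scale (horizontal axis) for all genes, as grey bars of the percentage of genes per 0.1 bin, with each member as a coloured tick in a row per stage. In Tau minus WT (upper panel) the 6 committed genes sit between -2.13 and -1.65, outside the bulk of all genes, while in AdipoRon minus DMSO (lower panel) members lie between -0.59 and 0.27 apart from Opalin at 1.53.

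The transcription factors fell into 3 genes that differed by less than 1.5-fold and 3 that differed by more. Olig1, a basic helix-loop-helix factor and the most abundant member, had 9.17 log2 CPM in the Tau mean and 9.34 in the WT mean, a difference of -0.17. Its relative Olig2, which specifies the lineage, had 6.93 and 7.24 (-0.31). Sox8, a SOX factor with functions shared with Sox10, had 5.60 and 6.18, which is 1.49-fold lower in Tau and just inside the limit. All 3 had the lower mean in Tau.

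Sox10, the SOX factor required for terminal differentiation, had 4.60 log2 CPM in the Tau mean and 6.24 in the WT mean, which is 3.12-fold lower in Tau, and only 0.08% of all genes had a lower difference. Nkx2-2, a homeobox factor of progenitors on the way to differentiation, had 2.42 and 3.94, 2.87-fold lower in Tau. Nkx6-2, a homeobox factor of maturing oligodendrocytes and the least abundant of the 6, had 2.83 CPM in the Tau mean and 5.86 CPM in the WT mean (2.08-fold lower). In the means by treatment, Sox10 had 5.68 log2 CPM with DMSO and 5.69 with AdipoRon, and Nkx2-2 had 3.43 and 3.38. For both genes the means by treatment lay between those by genotype.

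Of the progenitor genes, 5 were 1.69-fold to 2.42-fold lower in Tau. Pdgfra, the receptor for the mitogen PDGF-A, had 5.69 log2 CPM in the Tau mean and 6.44 in the WT mean (1.69-fold lower in Tau). Cspg4, which encodes NG2, had 4.98 and 5.78 (1.73-fold lower), and Lhfpl3, a tetraspan membrane protein, 5.13 and 5.92 (1.73-fold lower). Vcan, the matrix proteoglycan versican, was the furthest apart of the 6, with 5.05 and 6.32 (2.42-fold lower), followed by the matrix gene Matn4 with 2.61 and 3.61 (2.00-fold lower). C1ql1, a secreted C1q-like protein at 2.42 and 2.59 log2 CPM, had a difference of -0.18 and was the least separated of the stage.

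Committed genes were the furthest apart of the 4 stages, and their differences lay close together, from -2.13 to -1.65. Because the stages were set with earlier results known, this separation is a description and not independent of the values. Gpr17, a G protein-coupled receptor of cells about to differentiate, had 5.15 log2 CPM in the Tau mean and 7.26 in the WT mean, so that 35.5 CPM stood against 153 CPM. With DMSO its mean was 6.78 and with AdipoRon 6.43, both between the values of the genotypes. Gpr17 was thus 4.33-fold lower in Tau, and 0.03% of all genes had a lower difference.

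Bcas1, a protein of early myelinating cells, had 5.62 log2 CPM in the Tau mean and 7.57 in the WT mean (3.85-fold lower in Tau), with 6.98 for DMSO and 6.91 for AdipoRon. Enpp6, a choline phosphodiesterase of newly formed oligodendrocytes, had 2.50 and 4.63 by genotype, and 4.02 and 3.93 by treatment. At 4.37-fold it was the largest difference of all members. Myrf, the membrane-bound factor that switches on myelin genes, had 3.82 and 5.46 (3.13-fold lower), while Zfp488, a zinc finger factor of differentiating cells, had 1.92 and 3.65 (3.33-fold lower). Bmp4, a secreted growth factor, had 1.86 and 3.67 (3.50-fold lower). None of the 6 differed by 1.5-fold between the AdipoRon and DMSO means.

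**Figure D3:**
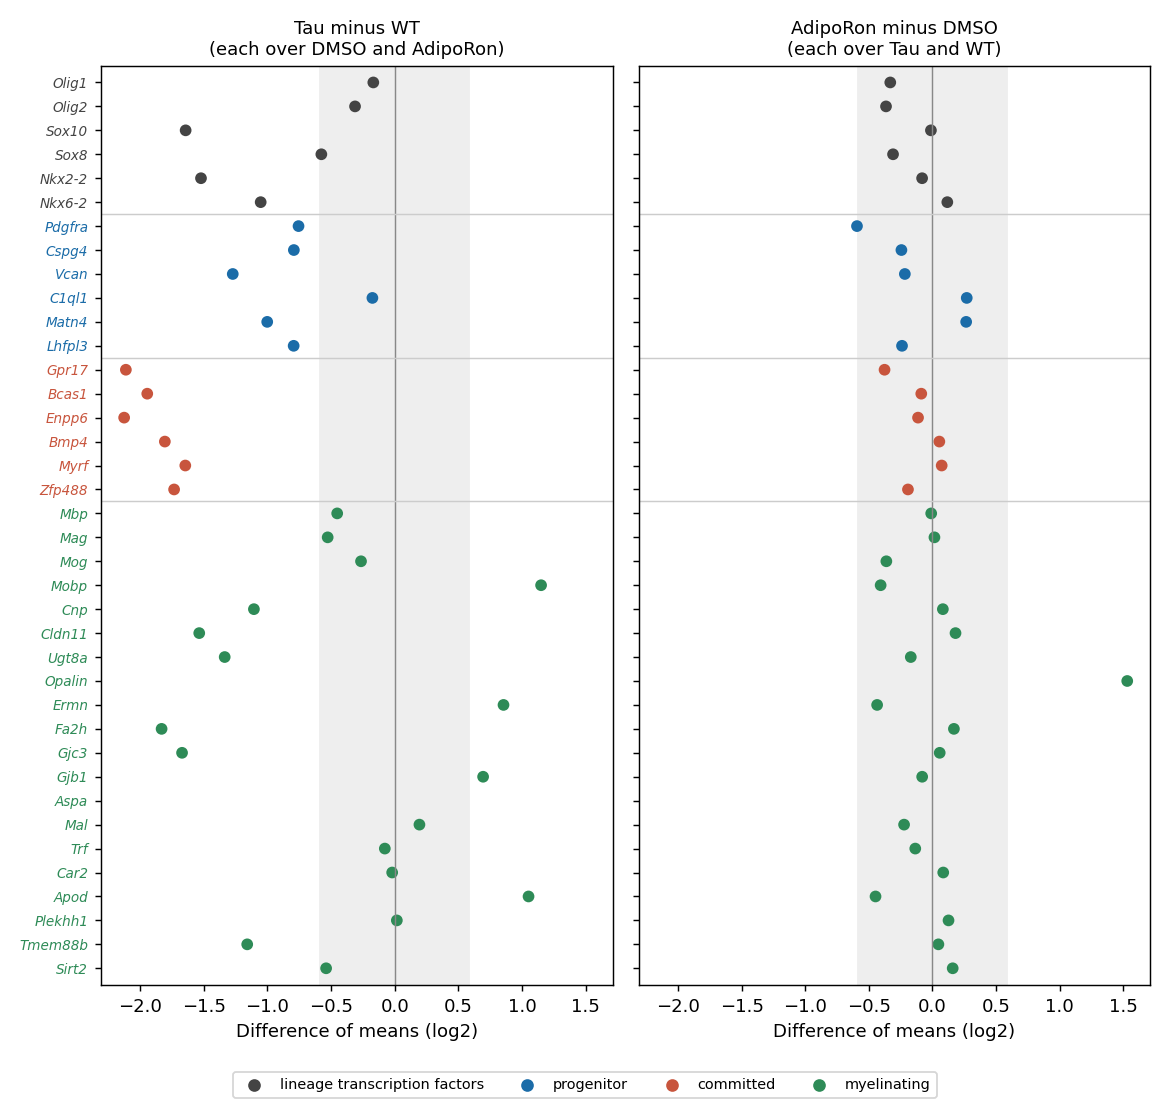
Differences of the mean log2 CPM (horizontal axis) for each member in rows by stage, Tau minus WT on the left and AdipoRon minus DMSO on the right; the grey band marks differences under 1.5-fold. The committed genes (red) form the lowest block on the left and lie inside the band on the right; Mobp, Ermn, Gjb1 and Apod stand to the right of the band in Tau minus WT.

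Myelinating genes differed in both directions, from -1.83 to 1.15. Fa2h, the fatty acid hydroxylase of myelin galactolipids, had 1.30 log2 CPM in the Tau mean and 3.13 in the WT mean (3.56-fold lower). Ugt8a, which makes galactosylceramide, had 3.71 and 5.04 (2.52-fold lower). Both enzymes act in the same lipid pathway, and both were counted as lower.

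Among membrane and junction proteins, Gjc3, a connexin of oligodendrocytes, had 3.60 log2 CPM in Tau and 5.27 in WT (3.18-fold lower). Cldn11, the claudin of myelin tight junctions, had 5.14 and 6.67 (2.90-fold lower), Tmem88b had 2.84 and 4.00 (2.23-fold lower), and Cnp, a phosphodiesterase of the non-compact sheath, had 6.15 and 7.26 (2.15-fold lower). These 4 genes and the 2 lipid enzymes are the 6 counted as lower.

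Other major myelin genes differed by less. Mbp, the myelin basic protein that compacts the sheath and the most abundant gene of the stage, had 7.89 log2 CPM in the Tau mean, 8.34 in the WT mean, 8.14 with DMSO and 8.16 with AdipoRon, a genotype difference of -0.45. Sirt2, a deacetylase enriched in myelin, had a difference of -0.54, Mag, the myelin-associated glycoprotein of the inner sheath, -0.53, and Mog, the glycoprotein of the outermost sheath, -0.26 at only 0.77 and 1.04 log2 CPM. Trf (transferrin, -0.08), Car2 (carbonic anhydrase, -0.02), Plekhh1 (0.02) and Mal (a myelin proteolipid, 0.19) were nearly level between the genotypes. These 8 genes lay inside the 1.5-fold limit.

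Mobp, Apod, Ermn and Gjb1 had the opposite direction. Mobp, a protein of compact myelin, had 4.58 log2 CPM in the Tau mean and 3.42 in the WT mean, which is 2.22-fold higher in Tau and higher than the difference of 99.96% of genes. Apod, a lipid-binding apolipoprotein, had 4.19 and 3.13 (2.07-fold higher). Ermn, a cytoskeletal protein of late oligodendrocytes, had 1.45 and 0.60 (1.81-fold higher), and Gjb1, a second connexin, 1.23 and 0.53 (1.62-fold higher). Both connexins of the list thus differed in opposite directions, with Gjb1 the far less abundant transcript. Apod is also made by fibroblasts, and markers of these cells differed in the same direction as it. Dcn had 3.11 log2 CPM in Tau and 2.26 in WT (a difference of 0.85). Lum (0.57) and Col1a1 (0.33) lay inside the 1.5-fold limit. The other vascular and meningeal markers with a value, Flt1 (-0.59), Pdgfrb (-0.08) and Pecam1 (-0.04), were lower in Tau. What part fibroblasts have in the result was not tested.

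Opalin and Aspa, both of mature oligodendrocytes, were the scarcest members. Opalin, a membrane protein, had -1.41 log2 CPM in the DMSO mean, 0.07 in the WT mean and 0.15 in the AdipoRon mean. Aspa, which cleaves N-acetylaspartate, had -1.77 in the WT mean and -1.73 in the AdipoRon mean. Opalin had no value in the Tau mean, and Aspa had none in the DMSO and Tau means.

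Sequence upstream of 4 of these genes is shown because they lie toward the ends of the genotype difference. They are the 2 lowest and the 2 highest members among those with a single entry in the RefSeq promoter table. Gpr17 (-2.11), Bcas1 (-1.94) and Fa2h (-1.83) lay lower than Bmp4 (-1.81) but had no single entry there. Each run is the 250 bases before the annotated start on the gene's strand, from RefSeq on GRCm38.p6 (the build that the labels name as mm10): Enpp6 at chr8:46986637-46986886 (+), Bmp4 at chr14:46390670-46390919 (-), Mobp at chr9:120149492-120149741 (+) and Apod at chr16:31314809-31315058 (-). Capitals mark the letters ACAAAG or ACAATG, cores of the motif bound by SOX factors, on either strand.
Enpp6: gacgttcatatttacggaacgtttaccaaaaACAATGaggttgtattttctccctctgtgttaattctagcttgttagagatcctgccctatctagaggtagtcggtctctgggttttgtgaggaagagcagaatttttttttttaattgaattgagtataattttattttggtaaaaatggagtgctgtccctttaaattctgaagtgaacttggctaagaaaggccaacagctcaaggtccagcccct
Bmp4: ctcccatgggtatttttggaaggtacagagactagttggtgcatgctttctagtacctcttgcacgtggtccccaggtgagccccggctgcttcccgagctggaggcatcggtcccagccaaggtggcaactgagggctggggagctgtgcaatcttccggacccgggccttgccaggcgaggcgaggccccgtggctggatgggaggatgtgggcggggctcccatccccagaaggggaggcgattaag
Mobp: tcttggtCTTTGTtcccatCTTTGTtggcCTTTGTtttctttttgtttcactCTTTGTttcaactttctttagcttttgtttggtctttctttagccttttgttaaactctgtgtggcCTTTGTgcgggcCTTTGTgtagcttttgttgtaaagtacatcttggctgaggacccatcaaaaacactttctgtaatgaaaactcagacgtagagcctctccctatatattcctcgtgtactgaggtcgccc
Apod: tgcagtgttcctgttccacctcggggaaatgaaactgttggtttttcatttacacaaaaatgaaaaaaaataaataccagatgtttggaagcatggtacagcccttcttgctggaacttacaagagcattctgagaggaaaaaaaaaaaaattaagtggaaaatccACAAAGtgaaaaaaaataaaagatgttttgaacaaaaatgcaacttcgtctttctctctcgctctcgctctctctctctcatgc
Mobp held 6 matches in this window, Enpp6 and Apod 1 each and Bmp4 none. Of 34 windows of 28 members in the RefSeq table, 13 (38.2%) held at least 1 match, against 25.2% of all 32851 windows. A match is only an occurrence of these letters.

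AdipoRon and DMSO means were close for most members. Of 37 members with a value in both, 1 was 1.5-fold or more lower with AdipoRon, against 5.23% of all 19693 genes, and 1 was 1.5-fold or more higher, against 2.65% of all genes. Stage medians were -0.20 for the transcription factors, -0.23 for progenitor, -0.10 for committed and 0.02 for myelinating genes. Pdgfra was the gene counted as lower, with 6.40 log2 CPM in the DMSO mean and 5.83 in the AdipoRon mean (-0.59), and Opalin the gene counted as higher, on the low values given above (1.53). Without subtraction of the median over all genes, Pdgfra lay inside the limit. Olig1 (-0.33), Olig2 (-0.36) and Sox8 (-0.31) had differences on the side of Pdgfra, and Mobp (-0.41), Apod (-0.45) and Ermn (-0.43), higher in Tau, were also on that side. For comparison, neuron markers had a median of -0.24, with 7 of 8 below 0, and astrocyte markers a median of 0.11. WT cultures are 6 of 11 in the AdipoRon mean and 5 of 10 in the DMSO mean. For members with a value in the Tau and WT means, a difference by genotype alone would therefore move AdipoRon minus DMSO by between -0.051 and 0.080, which is under the limit. Opalin has no Tau value and is not covered by this range.

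The means also give Tau cultures with AdipoRon minus WT cultures with DMSO, a pair that no table compares, because the other groups cancel on the linear scale. This difference combines genotype with treatment. It comes from the same means as the differences above, so it largely restates them and is no separate result. It can be computed through Tau with DMSO or through WT with AdipoRon, but the weighted sum of the means fixes both routes to the same quantity, so that they are 1 estimate and not a repeat. They were apart by a median of 0.35 CPM and at most 8.20 CPM over the members. By both routes 28 of 36 members lay below 0, against 46.6% of all 19399 genes, 7 lay above 0, against 51.5%, and for 1 (Mal) the sign differed. Gpr17 differed by -149 and -148 CPM, Bcas1 by -154 and -151 CPM, and Sox10 by -53.7 and -53.0 CPM. Mobp differed by 8.69 and 9.30 CPM and Apod by 5.70 and 5.90 CPM. Below 0 were all 6 transcription factors, all 6 committed genes, 5 of 6 progenitor genes and 11 of 18 myelinating genes, counts of sign with no limit on size.

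Of 16 further oligodendrocyte genes outside the member list, 6 were 1.5-fold or more lower in Tau, against 2.64% of all genes, 2 were higher, against 2.53%, and 8 lay inside the limit, with a median of -0.46. This list, too, was set with earlier results of these data known, so its counts are a description and no independent check. Neu4, a sialidase, had 1.87 log2 CPM in the Tau mean and 4.09 in the WT mean (-2.22), and Plxnb3, a semaphorin receptor of the lineage, 3.09 and 5.15 (-2.06). Gal3st1, which sulfates galactosylceramide after Ugt8a has made it, differed by -1.27, and the tetraspanin Tspan2 by -1.19. Hapln2, a link protein of the nodes, and Ppp1r14a were the 2 higher genes, at 0.60 and 0.81. Ptprz1 (-0.19) and Cspg5 (-0.12), which astrocytes express as well, were inside the limit. So were Tns3 (-0.50), Enpp2 (-0.47), Tcf7l2 (-0.44), Sox6 (-0.28), Cdh20 (-0.05) and Gpr37 (0.08).

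Microglia markers and genes of dividing cells were lower in Tau alongside the oligodendrocyte genes. For the counts that follow, 2.64% of all 19890 genes were counted as lower and 2.53% as higher. Genes of dividing cells need not mark a separate population, since oligodendrocyte progenitors divide as well. Which cells divide in these cultures was not examined. Of 8 microglia markers, 7 were counted as lower (median -1.06), among them Tmem119 (-1.39), Cx3cr1 (-1.19) and C1qa (-1.05), and their summed level was 191 CPM in the Tau and 383 CPM in the WT mean. The genes of dividing cells Mki67 (-0.73), Top2a (-0.63) and Cdk1 (-0.60) were counted as lower, and the fourth, Ccnb1, had -0.58. Neuron markers (median 0.10, range -0.01 to 0.33) and astrocyte markers (median 0.02, range -0.28 to 0.12) had no gene past 1.5-fold, and their summed levels were 4327 and 4933 CPM in Tau and 3937 and 4888 CPM in WT. Of the 6 vascular and meningeal markers with a value, 1 was counted as lower and 1 as higher (median 0.15). Whether the amounts of microglia and dividing cells have a part in the oligodendrocyte values was not tested.

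**Figure D4:**
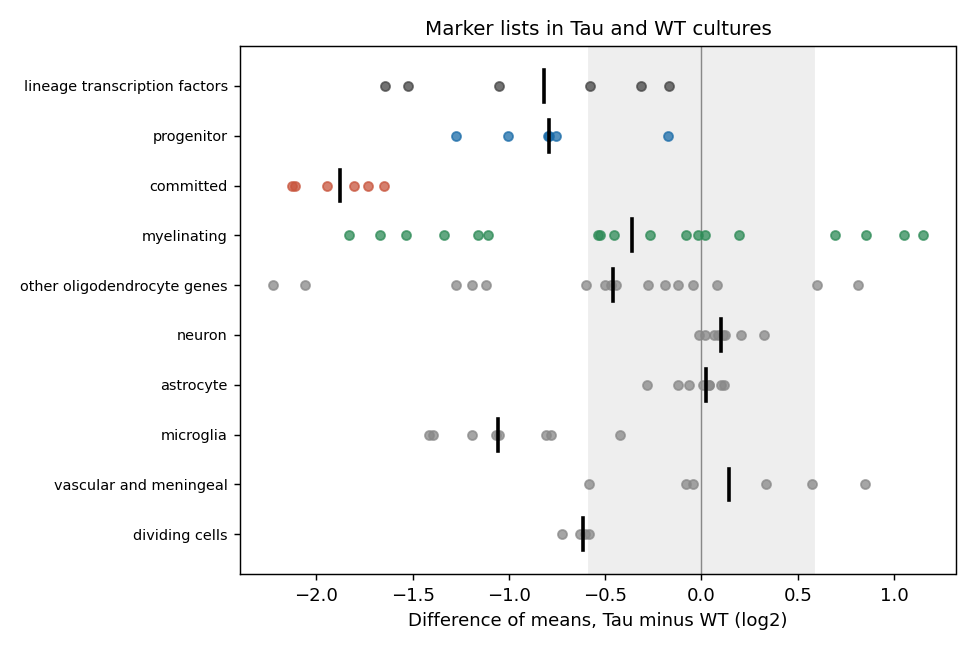
Difference of the mean log2 CPM, Tau minus WT (horizontal axis), for every gene (dot) of each marker list described here (rows), with the list's median as a black bar and differences under 1.5-fold in grey. The committed genes have the lowest median (-1.88), followed by microglia markers (-1.06), while neuron and astrocyte markers lie inside the band.

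Summed over members, the stages differed in how far their levels were apart. The committed genes added up to 112 CPM in the Tau mean and 437 CPM in the WT mean, the progenitor genes to 163 and 300 CPM, and the transcription factors to 781 and 968 CPM, of which Olig1 made 578 and 648 CPM. The myelinating genes added up to 786 and 1139 CPM. With DMSO and AdipoRon the committed genes added up to 298 and 269 CPM, and the myelinating genes to 962 and 989 CPM.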

How the data were processed

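Per the labels and the paper's methods, the authors trimmed reads, aligned them with STAR to mm10 (the paper's results name GRCm39), quantified them with RSEM (the tables are named after Rsubread) and fitted a generalized linear model in edgeR to each pair of groups. The gene filter and library normalization are not given in the sources used here. Each of the 4 deposited tables holds the authors' mean log2 CPM over the cultures of its 2 groups, which includes edgeR's prior count and was the value used. The deposited tables also hold the authors' own fold changes, likelihood ratios, p-values, false discovery rates and calls, none of which was used. On the linear scale, the 4 means weighted by their cultures closed to within 2.08% on all 19399 genes shared, with the groups taken from the table names. This sum would hold equally if the Tau and WT pair were exchanged for the DMSO and AdipoRon pair.

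Differences between tables that share no culture were computed over all genes in both and centred on their median, with Python 3.11.15 and pandas 2.3.3, and the procedure was tested on simulated data. The means carry no spread and no test was run, so 1.5-fold was used as the size that is counted. The members, stages and marker lists were chosen with earlier results of these data known. Genes with values named are members past that size in either comparison, the most and least abundant of each stage, other members in short, and genes of the marker lists. Levels were compared between genes after division by the length of the canonical transcript in GENCODE vM39, found for 37 of 38 members. Exons of 22 of 38 members overlap those of another gene in that annotation, 3 of them on the same strand (Pdgfra, Matn4 and Mobp), and it is not stated whether counting used strand. The Schwann cell marker list is not reported here.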

Additional observations from a re-analysis of the deposited data

How the results depend on the processing

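No paired analysis was possible because values per culture were not analysed here, and for the same reason no culture could be left out. The stage medians of both comparisons stayed within the robust SD of all genes' differences under every alternative on the log2 scale (no centring, genes above 0 log2 CPM in both means, genes in all 4 tables, mean over members), and had the same side of 0 in percentile ranks wherever the median was past 1.5-fold. Centring shifts all genes alike, by 0.0021 and 0.024, and the filters only drop genes, so these settings could hardly move a median. Members lower in Tau numbered 17 to 24 over all alternatives (20 in the report). At 2-fold, and among genes with a mean log2 CPM over 2 and up to 8 (chosen after seeing the data), 2 members were higher in Tau. Members lower with AdipoRon numbered 0 without centring, 0 at 2-fold and 8 at a limit of 0.32 on the log2 scale. Members higher with AdipoRon numbered 0 among genes with a mean log2 CPM above 0 and 0 among genes in all 4 tables, where Opalin is left out. The share of all genes past 2-fold or past 0.32 was not computed. Counts of members at these limits, in either comparison, therefore have no background beside them. Per kilobase, the median percentile in the WT mean came to 54.2 for progenitor genes (78.5 without division by length) and 53.4 for committed genes (67.4), both past the 10 percentile points taken as a move. The limit is that 1 mean stands for 10 or 11 cultures, perhaps of 5 or 6 animals: its spread is unknown, and the prior count pulls differences of the scarcest transcripts toward 0.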
